A study of Mus musculus with 335 samples.

Results

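The GDNF family receptors are the tyrosine kinase Ret and its Gfra co-receptors. They were taken as Ret and every Gfra gene with a row in the deposited table of estimated counts, which gave 5 of the 13448 entries that carry a gene symbol: Ret, Gfra1, Gfra2, Gfra3 and Gfra4. Counts of receptors past a fold threshold are given over the set of 4 named with that rule (Ret, Gfra2, Gfra3 and Gfra4), and Gfra1 is described beside them. The rule itself uses no measured value, though it was proposed with earlier results of these data known.

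The study measured messenger RNA in 335 single cells by Smart-seq2, a full-length method that reads 1 cell per well. All cells were taken from wild-type mouse embryos of stage E11.5 and from 1 tissue, the aorta-gonad-mesonephros (AGM), where the first haematopoietic stem cells form. The HSC group held 65 EPCR+CD45+ cells, a sort that includes the stem cells. Ngfr+Pdgfrb- cells made up 2 groups, with 93 cells dorsal of the aorta in Dorsal and 89 cells ventral of it in Ventral. The Mesenchymal group held 88 Pdgfrb+Ngfr- cells, also ventral. Ngfr is a surface receptor of neural crest-derived cells, and Pdgfrb one of mesenchymal and mural cells. No group was treated, and all shared genotype, stage and tissue. No animal is named in the labels, so each group was 1 sample, a pool of cells sequenced together, and no test between groups could be made. A difference between pools cannot be told apart from a difference between their libraries, and in a pool's summed level fewer positive cells cannot be told apart from less RNA per cell.

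Ligands of the GDNF family do not bind Ret alone. A ligand first binds a Gfra protein, which is anchored to the outer membrane by a lipid, and the complex then activates the kinase of Ret. Gfra1 is the preferred co-receptor of GDNF, Gfra2 of neurturin, Gfra3 of artemin and Gfra4 of persephin, with some crosstalk between pairs. In the embryo these receptors are known from the neural crest lineages that form sympathetic and enteric neurons, and from the ureteric bud of the kidney. The transcription factor Sox10 maintains migrating crest and glial precursors, while the tubulin Tubb3 marks cells that turn into neurons.

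Summed estimated counts over named genes ranged from 68560755 in Mesenchymal to 110598792 in Ventral. The median cell held 1033890 counts in Dorsal, 943772 in HSC, 574689 in Ventral and 505916 in Mesenchymal. A single Ventral cell, Ventral 41, held 18.5% of its pool's counts, against 3.56% for the deepest Dorsal cell, Dorsal 81. The marker genes followed the sorts in the main. All 8 crest and glial markers were above 0 in Dorsal and in Ventral, at a summed 1166 and 400.3 counts per 1000000 (CPM), and Sox10 and Foxd3 were at 0 in HSC. The 6 measured mesenchymal markers summed to 2112 CPM in Mesenchymal, where Dbh, Foxd3 and Erbb3 were at 0, and the 7 haematopoietic markers summed to 921 CPM in HSC. The 8 macrophage markers summed to 921 CPM in Dorsal and 688 CPM in Ventral, against 14.7 CPM in HSC and 1.90 CPM in Mesenchymal, so both Ngfr+ pools included cells with macrophage RNA. Index pairs were reused, with 96 of 96 pairs found in at least 2 pools and 55 in all 4.

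Ret RNA was found in both Ngfr+ pools, at a low level in HSC and not at all in Mesenchymal. Ret lies on chromosome 6 (118151745 to 118197718, minus strand, GRCm38), and its longest coding transcript has 20 exons and 5456 bases. Its pool level was 41.2 CPM in Dorsal (95% limits 40.01 to 42.4), 34.4 CPM in Ventral (33.3 to 35.5), 3.32 CPM in HSC (2.94 to 3.74) and 0 CPM in Mesenchymal, with an upper limit of 0.0538 CPM. These limits, like all limits here, are exact and cover counting error only. Limits on levels take each read as an independent count. Reads carry no molecular identifiers, so these limits are narrower than the error in molecules, and they leave out the spread over cells. Against a floor of 3 counts over the Mesenchymal pool, the ratio of Ret reads was 942 for Dorsal and 785 for Ventral. These ratios take reads as independent, while Ret reads came from a minority of cells. They are therefore no lower bound on the difference between the cell populations. The share of cells that a count of 0 allows is given below. Dorsal stood 12.4-fold above HSC (10.98 to 14.1).

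Ret was carried by a minority of cells at a high level. To compare shares of cells at 1 depth, each cell was thinned to 310000 counts and called positive at 5 counts or more, which is 16.1 CPM. By this rule 28 of 92 Dorsal cells (30.4%; 95% limits 21.3 to 40.9), 29 of 80 Ventral cells (36.3%; 25.8 to 47.8) and 4 of 64 HSC cells (6.25%; 1.73 to 15.2) held Ret. None of the 69 Mesenchymal cells did, and a count of 0 allows a share of up to 4.35% by the floor of 3 counts and up to 5.21% by the exact limit. Without thinning the shares were 34.4% in Dorsal, 34.8% in Ventral and 9.23% in HSC. In Dorsal the level per cell ran from 0 to 726.6 CPM (Dorsal 75), with a median over all cells of 0.639 CPM and a median over unthinned positive cells of 74.4 CPM. In Ventral it ran from 0 to 351.5 CPM (Ventral 61), with a median of 0 over all cells and 102.4 CPM over positive cells. The ranges of the 2 pools overlapped: the Ventral cells lay within the Dorsal range, whose highest cells stood above every Ventral cell. The pool sums rested in part on few cells: Ventral 15 alone held 35.8% of the Ventral Ret counts, while Dorsal 92 held 12.7% of the Dorsal ones. Ventral 15 is a deep cell, whereas Dorsal 92, with 912592 counts, lay below the Dorsal median depth and had 623.5 CPM of Ret.

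Gfra1, the GDNF co-receptor, was the most widespread co-receptor beside Gfra3 in the Ngfr+ pools. Gfra1 lies on chromosome 19 (58235604 to 58455909, minus strand), with 4641 bases in its longest coding transcript. Its pool level was 63.7 CPM in Dorsal (62.2 to 65.2), 31.9 CPM in Ventral (30.8 to 32.9), 9.45 CPM in Mesenchymal (8.74 to 10.2) and 0 CPM in HSC, with an upper limit of 0.0447 CPM. It was found in 58 of 92 Dorsal cells (63.04%; 52.3 to 72.9), 30 of 80 Ventral cells (37.5%; 26.9 to 49.04) and 4 of 69 Mesenchymal cells (5.80%; 1.60 to 14.2). In HSC 0 of 64 cells held it, which allows a share of up to 4.69% by the floor of 3 counts and up to 5.60% by the exact limit. The Dorsal cells ran from 0 to 441 CPM with a median of 45.6 CPM, and the Ventral cells from 0 to 358.2 CPM with a median of 0.846 CPM. In Mesenchymal 3 deep cells held 92.8% of its counts.

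Gfra2, the neurturin co-receptor, was nearly limited to the Ngfr+ pools in these libraries. Gfra2 lies on chromosome 14 (70890120 to 70979838, plus strand), with 3472 bases in its longest coding transcript. Its level was 24.8 CPM in Dorsal (23.9 to 25.8), 12.3 CPM in Ventral (11.7 to 13.002), 0.887 CPM in Mesenchymal and 0.535 CPM in HSC. It was found in 27 of 92 Dorsal cells (29.3%; 20.3 to 39.8) and 13 of 80 Ventral cells (16.3%; 8.95 to 26.2), and in none of the 64 HSC and 69 Mesenchymal cells. Dorsal cells ran from 0 to 140 CPM with a median of 1.76 CPM. Ventral cells ran from 0 to 277.9 CPM (Ventral 19) with a median of 0. Ventral 15, the cell with most Ret counts, also held 32.4% of the Ventral Gfra2 counts.

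Gfra3, the artemin co-receptor, had the highest level per transcript length of the family in all but the HSC pool. Gfra3 lies on chromosome 18 (34689898 to 34720387, minus strand), with 1997 bases in its only coding transcript. Its level was 116 CPM in Dorsal (114 to 118), 23.4 CPM in Ventral (22.5 to 24.3), 19.1 CPM in Mesenchymal (18.1 to 20.2) and 0.0752 CPM in HSC, where the only counts came from 1 cell. It was found in 58 of 92 Dorsal cells (63.04%; 52.3 to 72.9), 18 of 80 Ventral cells (22.5%; 13.9 to 33.2) and 12 of 69 Mesenchymal cells (17.4%; 9.32 to 28.4). The Dorsal cells ran from 0 to 575.7 CPM (Dorsal 37) with a median of 50.6 CPM. Ventral cells ran from 0 to 572.3 CPM (Ventral 42) and Mesenchymal cells from 0 to 870 CPM (Mesenchymal 11), both with a median of 0. The top cells of the 3 pools were thus of the same order of level, while the share of positive cells was highest in Dorsal.

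Gfra4, the persephin co-receptor, was rare everywhere. Gfra4 lies on chromosome 2 (131039632 to 131043088, minus strand), with 1426 bases in its longest coding transcript. Its level was 3.54 CPM in Dorsal (3.19 to 3.91), 3.08 CPM in Mesenchymal (2.68 to 3.53), 1.49 CPM in HSC (1.24 to 1.77) and 0.491 CPM in Ventral (0.370 to 0.641). It was found in 4 of 92 Dorsal cells (4.35%), 2 of 80 Ventral cells (2.5%), 2 of 64 HSC cells (3.13%) and 6 of 69 Mesenchymal cells (8.70%; 3.26 to 17.97), and the limits of the 4 shares overlap. Its pool levels rest largely on few cells: Dorsal 81 held 61.7% of the Dorsal counts, and HSC 58 held 84.8% of those in HSC. The median cell was at 0 in every pool.

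**Figure D1:**
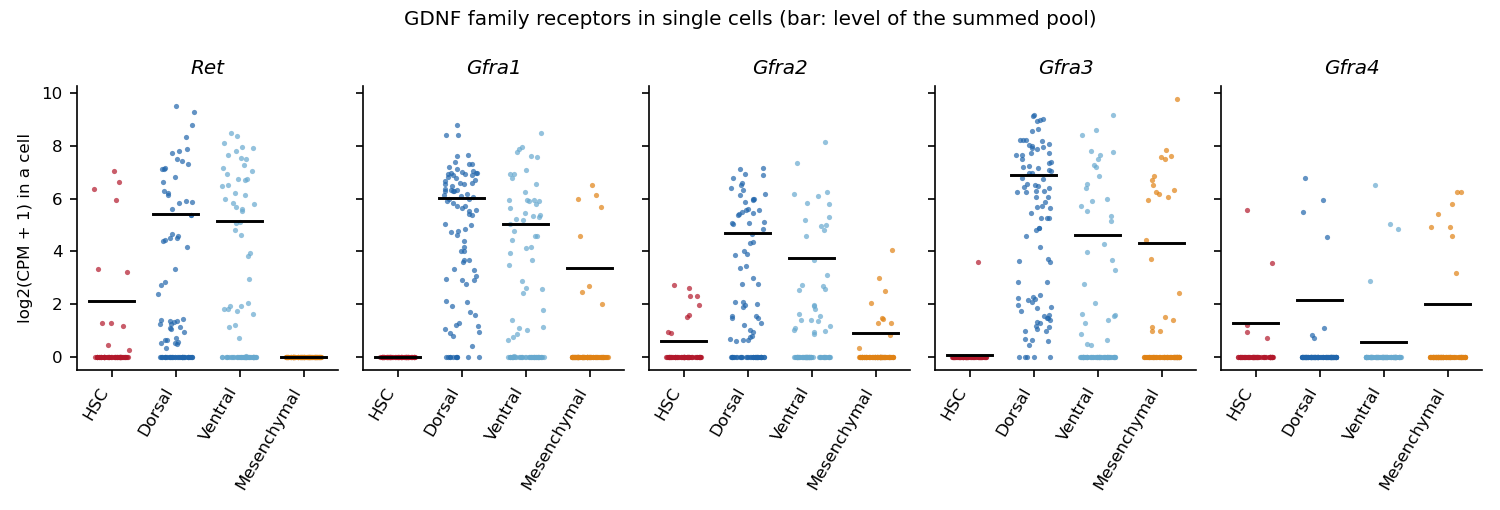
Level of the 5 receptor genes in each of the 335 cells, as log2(CPM + 1) on the vertical axis, with 1 panel per gene and 1 column of points per sorted group. Horizontal bars mark the level of the summed pool: Ret has 41.2 CPM in Dorsal and no counts in any Mesenchymal cell, Gfra3 reaches 870 CPM in a Mesenchymal cell, and most Gfra4 points lie at 0.

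To order the genes by level, CPM was divided by the length of the longest coding transcript in kilobases. In Dorsal this gave 58.2 CPM per kilobase for Gfra3, 13.7 for Gfra1, 7.55 for Ret, 7.15 for Gfra2 and 2.48 for Gfra4. Ret and Gfra2, neighbours in that order, lay far closer than the spread over cells of either gene. In Ventral the order was Gfra3 at 11.7 CPM per kilobase, Gfra1 at 6.86, Ret at 6.30, Gfra2 at 3.55 and Gfra4 at 0.345. In Mesenchymal Gfra3 stood at 9.59 CPM per kilobase, Gfra4 at 2.16, Gfra1 at 2.04 and Gfra2 at 0.255, without Ret. In HSC Gfra4 at 1.04 and Ret at 0.609 CPM per kilobase led.

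The 2 sides of the aorta were compared to ask how the Ngfr+ cells differ between them. Of the 4 receptors, Gfra3 and Gfra4 were at least 2-fold higher in Dorsal than in Ventral and none was 2-fold lower; of all 13152 genes with at least 100 counts, 10.1% were that much higher in Dorsal and 8.3% lower. Folds are log2 ratios of (CPM + 1), which understate the difference of low genes. Gfra3 had a log2 fold of 2.26, Gfra4 of 1.60, Gfra1 of 0.98, Gfra2 of 0.95 and Ret of 0.26, beside a median of 0.14 over all genes.

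The Gfra3 difference stayed above 2-fold in 12 of 13 other ways of computing it, with log2 folds from 0.58 to 2.99. The exception was the set of cells with both Sox10 and Tubb3. That of Gfra4 rested in large part on Dorsal 81, which is also the deepest Dorsal cell. The log2 fold was 0.58 without the deepest cell of each group, Dorsal 81 and Ventral 41. It was 0.87 without the cell with most Gfra4 counts in each group and 0.37 with all cells weighted equally. Among cells with even i7 index, which leave out Dorsal 81, it was still 1.30. The value for Ret ranged from -0.87 to 1.09 and kept its direction in 11 of the 13. It was below 0 among cells with odd i7 index and among cells with Sox10. Among cells with odd i7 index Ret had a log2 fold of -0.49 and among those with even index 1.09, so 2 sets of cells of the same pools differed by more than the pools did. Gfra2 spread in the same way, with 0.35 among odd-index and 2.22 among even-index cells, and Gfra1 with 0.56 and 1.82. Single cells weigh on this split. Ventral 15, with 35.8% of the Ventral Ret counts and 40.3% of the Ventral Gfra1 counts, has an odd index. Ventral 41, with 18.5% of the pool's counts and 0.0398 CPM of Ret, has an even one. The split was not computed without these cells.

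The folds moved with the cells that were counted. A setting left out cells for Ptprc, the CD45 gene. Its log2 folds were 0.85 for Ret, 1.67 for Gfra1, 1.46 for Gfra2 and 2.72 for Gfra3. By the thinned rule 0 of 29 Ventral Ret cells held Ptprc, yet the Ventral Ret level fell from 34.4 to 25.3 CPM there. Ventral 15 held the most counts of these genes in Ventral. Leaving out only the top cell of each group gave log2 folds of 0.61 for Ret, 1.48 for Gfra1 and 1.28 for Gfra2. Folds without Ptprc cells but with Ventral 15 kept were not computed. Among thinned cells with Sox10 the log2 folds were -0.87 for Ret, 0.30 for Gfra1, 0.08 for Gfra2, 1.32 for Gfra3 and 1.94 for Gfra4. Among those with both Sox10 and Tubb3 they were 0.09, -0.51, -0.89, 0.58 and 1.30 in the same order, and no receptor with at least 100 counts was 2-fold higher in Dorsal. The summed levels of Gfra1 and Gfra2 were thus lower in Dorsal than in Ventral in that set, while their shares of cells ran the other way. Gfra1 was in 19 of 35 Dorsal cells (54.3%) against 12 of 28 Ventral ones (42.9%). Gfra2 was in 9 of 35 (25.7%) against 5 of 28 (17.9%), and the limits overlap for both genes. Mean levels after thinning were 46.4 against 50.2 CPM for Gfra1 and 15.9 against 18.2 CPM for Gfra2. The Ventral cells of the set had no Gfra4 count, so its value there depends on the pseudocount. The restrictions to Sox10 and Tubb3 cells were chosen after the data were seen.

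**Figure D2:**
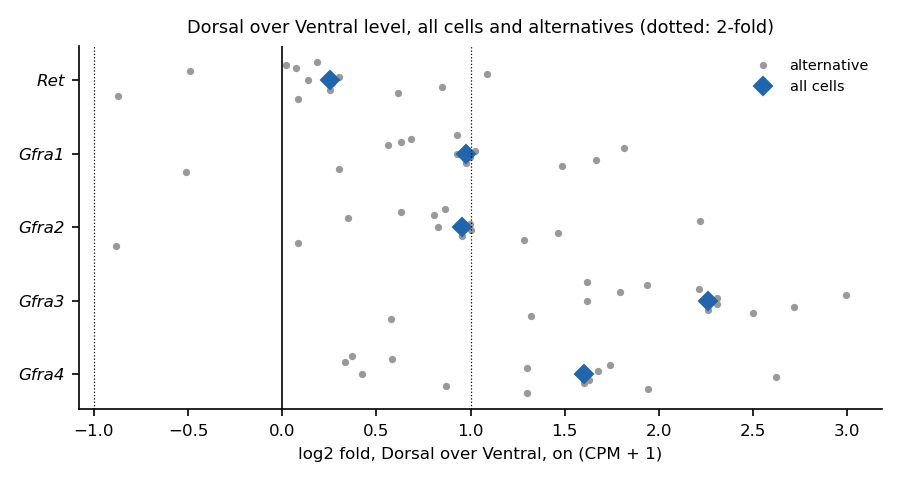
Log2 fold of Dorsal over Ventral, on the (CPM + 1) scale, for the 5 receptor genes (rows). Diamonds give the value over all cells, grey points the 13 other ways of computing it, and dotted lines a 2-fold difference. All points of Gfra3 but 1, at 0.58, lie to the right of the 2-fold line, while those of Ret lie on both sides of 0.

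The other comparisons share pools with this one and with each other. Of the 4 receptors, 2 (Ret and Gfra2) were at least 2-fold higher in Ventral than in Mesenchymal, where 17.1% of genes were and 12.9% were lower. Gfra3 had a log2 fold of 0.28 there, and Gfra4 one of -1.45, that is, a higher level in Mesenchymal. Over the 11 other ways of computing it, Gfra3 ranged from -0.49 to 0.81 in that comparison, and Gfra4 from -2.43 to -0.80. In Dorsal against Mesenchymal 3 were higher (Ret, Gfra2 and Gfra3), where 17.5% of genes were and 9.68% were lower, with Gfra3 at a log2 fold of 2.54. In Dorsal against HSC the same 3 were higher, where 25.3% of genes were and 11.3% were lower, with log2 folds of 3.29 for Ret, 4.07 for Gfra2 and 6.77 for Gfra3. In Ventral against HSC these 3 were higher too, where 24.5% of genes were and 14.1% were lower, with log2 folds of 3.03, 3.12 and 4.51. Gfra1 had log2 folds of 1.65 in Ventral and 2.63 in Dorsal over Mesenchymal. Among even-index cells alone the value of Gfra1 in Ventral over Mesenchymal was 0.44.

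Within the Ngfr+ pools most cells with Ret, Gfra2 or Gfra3 held Sox10, and most Ret cells also held Tubb3. Sox10 was in 44 of 57 Ret cells against 72 of 115 cells without Ret. It was in 37 of 40 Gfra2 cells against 79 of 132, and in 73 of 76 Gfra3 cells against 43 of 96. By pool, Sox10 was in 23 of 28 Ret cells against 56 of 64 in Dorsal, and in 21 of 29 against 16 of 51 in Ventral. Tubb3 was in 49 of the 57 Ret cells against 38 of 115. The 172 thinned cells of both pools were split by these 2 genes outside the family into 53 cells with Sox10 only, 63 with both, 24 with Tubb3 only and 32 with neither. Tubb3 was chosen for this split after its values were seen and is among the 6 genes most like Ret, so the Ret shares by class describe that likeness again. The noradrenaline enzyme gene Dbh was in 26.4% of cells with Sox10 only, 60.3% of those with both, 83.3% of those with Tubb3 only and 0 of the 32 others (upper 95% limit 10.9%).

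Ret was found in 13.2% of cells with Sox10 only (95% limits 5.48 to 25.3), 58.7% of those with both (45.6 to 70.99), 50% of those with Tubb3 only (29.1 to 70.9) and 3.13% of those with neither. Gfra3 ran the other way, at 83.02% (70.2 to 91.9), 46.03% (33.4 to 59.1), 8.33% (1.03 to 26.997) and 3.13%. Gfra2 followed Gfra3, at 43.4% (29.8 to 57.7), 22.2% (12.7 to 34.5), 4.17% (0.105 to 21.1) and 6.25%. For Ret, Gfra2 and Gfra3 the limits of the Sox10-only and the Tubb3-only class do not overlap. Gfra1 was found in 77.4%, 49.2%, 41.7% and 18.8% of the classes, and in Tubb3-only cells its share was the highest of the 4 co-receptors. The 6 Gfra4 cells were spread over all 4 classes. Cells of a class share a pool and are not replicates, so these limits describe the cells at hand.

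Mean levels showed the same order for Gfra3, which averaged 158 CPM after thinning in cells with Sox10 only, 61.4 CPM with both and 6.99 CPM with Tubb3 only. Ret averaged 15.3, 89.7 and 76.7 CPM in these classes. In each pool alone the share of Ret was lower in Sox10-only than in Tubb3-only cells (5 of 44 against 5 of 6 in Dorsal, 2 of 9 against 7 of 18 in Ventral), and that of Gfra3 higher (39 of 44 against 0 of 6, and 5 of 9 against 2 of 18). In Ventral these small classes have limits that overlap.

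The pools held these classes in different numbers. Dorsal had 44 cells with Sox10 only, 35 with both, 6 with Tubb3 only and 7 with neither, and Ventral 9, 28, 18 and 25. Among cells with both genes, Ret was in 18 of 35 Dorsal cells (51.4%; 33.99 to 68.6) and 19 of 28 Ventral cells (67.9%; 47.6 to 84.1), and Gfra3 in 19 of 35 (54.3%; 36.6 to 71.2) and 10 of 28 (35.7%; 18.6 to 55.9). The limits of the 2 pools overlap for both genes, and the difference between pools was not tested, as each is 1 sample. Of the cells with neither gene, 6 of 7 in Dorsal and 7 of 25 in Ventral held Ptprc. The Ventral cells with neither held Gfra1 in 6 of 25 and Ret in 1.

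**Figure D3:**
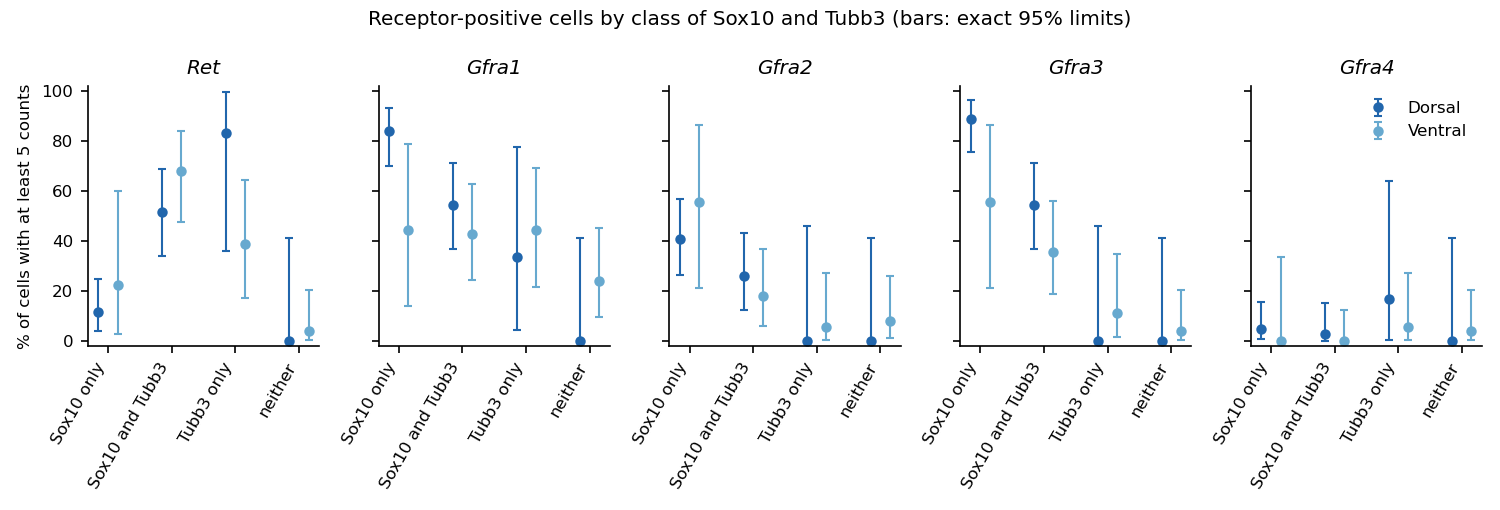
Percent of thinned cells with at least 5 counts of each receptor gene (vertical axis), by class of Sox10 and Tubb3, for Dorsal (dark) and Ventral (light). Bars are exact 95% limits from counting cells. Ret is found in 5 of 6 Dorsal cells with Tubb3 only and in 5 of 44 with Sox10 only, and Gfra3 in 0 of 6 and 39 of 44.

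Co-detection of Ret with each co-receptor was then counted cell by cell. In Dorsal, Gfra3 was in 11 of 28 Ret cells (39.3%; 21.5 to 59.4) against 47 of 64 cells without Ret (73.4%; 60.9 to 83.7). Gfra2 was in 4 of 28 (14.3%; 4.03 to 32.7) against 23 of 64 (35.9%; 24.3 to 48.9). Gfra1 was in 17 of 28 (60.7%) against 41 of 64 (64.1%), and Gfra4 in 3 of 28 (10.7%) against 1 of 64 (1.56%). The limits of the pair do not overlap for Gfra3 and overlap for the other 3 genes.

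In Ventral the order was not the same. Gfra3 was in 10 of 29 Ret cells (34.5%; 17.9 to 54.3) against 8 of 51 others (15.7%; 7.02 to 28.6), Gfra2 in 6 of 29 (20.7%) against 7 of 51 (13.7%), Gfra1 in 13 of 29 (44.8%) against 17 of 51 (33.3%), and Gfra4 in 0 of 29 against 2 of 51. Among cells with Sox10, Gfra3 was in 8 of 21 Ventral Ret cells (38.1%; 18.1 to 61.6) against 7 of 16 others (43.8%), and in Dorsal in 11 of 23 (47.8%; 26.8 to 69.4) against 47 of 56 (83.9%). Among Dorsal cells with both Sox10 and Tubb3 it was in 8 of 18 Ret cells (44.4%) against 11 of 17 others (64.7%), and among such Ventral cells in 8 of 19 (42.1%) against 2 of 9 (22.2%).

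**Figure D4:**
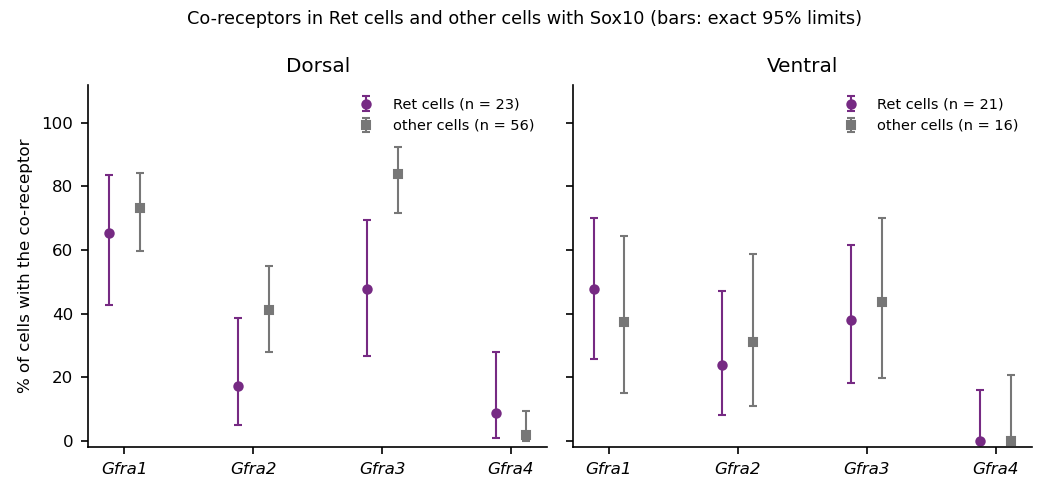
Percent of cells with each co-receptor (vertical axis) among Ret cells (circles) and other cells (squares) that hold Sox10, in Dorsal (left) and Ventral (right), with exact 95% limits. In Dorsal Gfra3 stands at 47.8% of Ret cells and 83.9% of the others, and in Ventral at 38.1% and 43.8%.

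Many Ret cells had no co-receptor at this depth. At least 1 Gfra gene was found in 21 of 28 Dorsal Ret cells (75%) and in 17 of 29 Ventral Ret cells (58.6%). The 7 Dorsal and 12 Ventral Ret cells left over held fewer than 5 thinned counts of each Gfra gene, which is not absence. Conversely, 54 of the 75 Dorsal cells with a co-receptor (72%) and 23 of the 40 such Ventral cells (57.5%) held no Ret. The commonest Dorsal patterns were Gfra1 with Gfra2 and Gfra3 and Gfra1 with Gfra3, in 17 cells each, both without Ret. In Ventral the commonest was no receptor, in 28 cells, then Ret alone in 12 and Gfra1 alone in 11.

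Co-receptors were also found together. In Dorsal, 43 of 58 Gfra1 cells (74.1%) held Gfra3 against 15 of 34 cells without Gfra1 (44.1%), and 22 of 27 Gfra2 cells (81.5%) held it against 36 of 65 (55.4%). In Ventral, 8 of 13 Gfra2 cells (61.5%) held Gfra3 against 10 of 67 (14.9%). Gfra1 was in 23 of 27 Dorsal Gfra2 cells (85.2%) against 35 of 65 others (53.8%), and in 8 of 13 Ventral ones (61.5%) against 22 of 67 (32.8%). These shares are over all cells of a pool, also those with neither Sox10 nor Tubb3, which were 7 of 92 in Dorsal and 25 of 80 in Ventral. The pairs of co-receptors were not counted among Sox10 cells alone.

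Ret cells were also described by other genes. In Dorsal, Th, which encodes the first enzyme of catecholamine synthesis, was in 67.9% of Ret cells against 17.2% of the others, Dbh in 82.1% against 28.1% and Tubb3 in 82.1% against 28.1%. The glial receptor gene Erbb3 was in 46.4% against 79.7%, and the proliferation gene Mki67 in 7.14% against 45.3%. In Ventral, Th was in 34.5% of Ret cells against 9.80%, Dbh in 58.6% against 27.5% and Tubb3 in 89.7% against 39.2%. Mki67 was in 34.5% against 60.8% there. Erbb3 changed direction between the pools, with 62.1% of Ventral Ret cells against 29.4% of the others. The Spearman correlation of Ret with Sox10 was likewise -0.32 in Dorsal and 0.25 in Ventral. Dorsal Gfra3 cells had a make-up opposite to that of Dorsal Ret cells. All 58 held Sox10, which 79 of the 92 Dorsal cells held. Erbb3 was in 89.7% of them against 35.3% of the rest and Th in 20.7% against 52.9%. In Ventral the make-up of Gfra3 cells was not opposite to that of Ret cells for Erbb3, Tubb3 or Th. Erbb3 was in 72.2% of Ventral Gfra3 cells against 32.3% of the rest. The Spearman correlation of Gfra3 with Tubb3 was -0.30 in Dorsal and 0.12 in Ventral, and with Th -0.26 and 0.09. With Sox10 it was 0.60 and 0.39.

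For each receptor the 6 genes most alike over cells were ranked by the lower of its Spearman correlations in Dorsal (92 cells) and Ventral (80 cells), among 9851 genes. The cells of a pool share their library, so these values are descriptions. Ret was most like Dll3 (rho 0.62 in Dorsal, 0.58 in Ventral), a Notch ligand family member, followed by Insm1, Tubb3, Map1b, Mfng and Elavl4, of which Insm1 is a transcription factor of new neurons and Elavl4 a neuronal RNA-binding protein. Gfra3 was most like Foxd3 (0.55 and 0.50), a transcription factor of crest cells, followed by Slc35f1, Postn, Tspan7, Gpr17 and Phactr1. Gfra2 was most like Slc35f1 (0.41 and 0.44), Erbb3, Sparc, Dab1, Prss12 and Postn, so that Slc35f1 and Postn stood near both Gfra2 and Gfra3. Gfra1 was most like Slc7a6 (0.39 and 0.41), Megf9, Cdh2, Heyl, Cttn and Tfap2a. For Gfra4 the highest lower value was 0.25, with 6 positive cells in all, which is too sparse to read. Between receptors, Ret had a rho of -0.33 with Gfra3 in Dorsal and 0.16 in Ventral, and -0.33 and -0.05 with Gfra2.

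The Ret signal in HSC came from few cells. Without thinning 6 HSC cells held at least 5 Ret counts: HSC 57 at 130 CPM, HSC 53 at 96.9, HSC 21 at 80.2, HSC 59 at 61.2, HSC 10 at 9.21 and HSC 34 at 8.28. Sox10 and Tubb3 were at 0 over the whole HSC pool, so their absence does not set these 6 cells apart. The stem cell factor receptor gene Kit stood between 149 and 496 CPM in them. Ptprc ran from 1.55 CPM in HSC 59 to 561 CPM in HSC 34. HSC 53 held 41.3% of the pool's Ret counts and the top 3 cells 83.6%. None of the 4 thinned HSC Ret cells held a Gfra gene, and the 2 HSC Gfra4 cells held no Ret.

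In Mesenchymal, Gfra3 was found in a pool with no Ret counts and a Sox10 level of 0.110 CPM. The 15 unthinned Gfra3 cells had Sox10 and Tubb3 at 0, and levels from 12.2 to 870 CPM with a median of 89.9 CPM. Wt1, a transcription factor of coelomic and gonadal mesenchyme, was in 8 of 12 thinned Gfra3 cells (66.7%; 34.9 to 90.1) against 12 of the 57 others (21.1%). The smooth muscle actin gene Acta2 was in 3 of 12 (25%) against 31 of 57 (54.4%). No thinned Mesenchymal Gfra3 cell held Gfra1, Gfra2 or Gfra4. The 6 thinned Gfra4 cells were other cells than those with Gfra3, and 5 of 6 held the mesenchymal receptor gene Pdgfra.

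RNA of the ligands was rare. Gdnf stood at 7.40 CPM in Ventral, 4.86 CPM in Mesenchymal, 1.25 CPM in Dorsal and 0 in HSC. It was found in 8 of 80 Ventral cells (10%; 4.42 to 18.8) and 6 of 69 Mesenchymal cells (8.70%), and in 1 of 92 Dorsal cells. Of the 8 Ventral Gdnf cells 7 lay in the class with neither Sox10 nor Tubb3, 5 of the 8 held Gfra1 and none Ret. Artn, which encodes artemin, stood at 4.41 CPM in Mesenchymal, 0.855 CPM in Ventral and 0.180 CPM in Dorsal, and was in 4 of 69 Mesenchymal and 2 of 80 Ventral cells. Nrtn, which encodes neurturin, stood between 0.807 and 1.44 CPM in the 4 pools. Pspn and Gdf15 were not analysed here.

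Other genes of the pathway were taken from lists chosen with the receptors. Their counts stand beside 10.1% of all genes at least 2-fold higher in Dorsal than in Ventral and 8.3% lower. Of 3 measured ligands, 1 (Gdnf, log2 fold -1.90) was at least 2-fold lower in Dorsal than in Ventral and none higher. Of 3 alternative receptors, which bind GDNF ligands apart from Ret or sort them, none differed 2-fold: Ncam1 had a log2 fold of 0.05, Sdc3 of 0.95 and Sorl1 of -0.80. Of 21 adaptors, which link the kinase to its signalling routes, 1 was higher (Gab1, 1.79) and 3 lower (Grb7, -1.69, Dok4, -1.62, and Dok3, -1.17), with a median of 0.18 beside 0.14 over all genes. Of 8 inhibitors, 2 were higher (Lrig1, 1.51, and Spry4, 1.48) and 1 lower (Cblb, -1.42). None of the 8 genes of the ERK response, which many receptors switch on, differed 2-fold in either direction.

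In Ventral against Mesenchymal more of all genes differed, with 17.1% at least 2-fold higher and 12.9% lower, and the counts in these lists stand beside those shares. Of the 8 ERK response genes 4 were higher in Ventral (Etv5, log2 fold 3.39, Dusp4, 2.87, Etv4, 2.71, and Spred1, 1.60) and 2 lower (Etv1, -1.88, and Egr1, -1.30), with a median of 1.25 beside 0.09 over all genes. Of the 21 adaptors 6 were higher and 4 lower, among them Dok2 (2.38) and Dok5 (-2.77). Of the 8 inhibitors 3 were higher (Lrig1, Spry4 and Dusp6, between 1.09 and 1.30) and none lower. Of the ligands Artn was lower (-1.54), and of the alternative receptors Sorl1 (-2.09).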

How the data were processed

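Per the submitters' processing notes the authors used kallisto 0.43.1 and mouse build GRCm38. The deposited table holds estimated counts per gene and cell, not scaled for depth; a second deposited table, on a log2 scale, served 1 alternative. How transcripts were summed to genes, and any filters, are not given in the sources used here. Of 14109 entries, 661 without a symbol (2.96% of counts) were left out. Groups follow the labels, and each cell is 1 GEO sample.

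CPM is the summed count of a gene in a group per 1000000 counts of that group, with exact Poisson 95% limits. Folds used a pseudocount of 1 CPM and genes with at least 100 counts over both groups. Deep cells weigh more in such sums. Estimated counts were rounded only for thinning to 310000 counts, which left out 30 shallower cells: 1 HSC, 1 Dorsal, 9 Ventral and 19 Mesenchymal. Shares have Clopper-Pearson limits. Genes named as alike are the 6 with the highest lower rho, among genes with at least 5 counts in 10% of the thinned cells of both pools; up to 4 genes per list were named by fold. Doublets were not searched for, as each well received 1 sorted cell. No cell was a copy of another: the largest correlation within a group was 0.784. Coordinates and lengths come from GENCODE M21 on GRCm38. The scripts were tested on simulated data. The receptors, lists and alternatives were chosen with earlier results of these data known. Python 3.11.15, numpy 2.4.6, pandas 2.3.3 and scipy 1.17.1 were used. One planned split of the Ngfr+ cells by marker genes is not reported here, and a split by Sox10 and Tubb3 was used in its place.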

Additional observations from a re-analysis of the deposited data

How the results depend on the processing

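With 1 pool per group no result has a replicate check, and limits cover counting error only. The number of the 4 receptors at least 2-fold higher in Dorsal than in Ventral was 2. It was 1 with cells weighted equally, 1 with the deposited log2 table and 1 without the deepest cell of each group. Without those cells and the cells sharing their index the number was 1, and with a pseudocount of 0.1 it was 3. The number was 3 in the setting that left out cells for Ptprc, with the limit given above, and 4 among even-index cells. It was 0 among cells with both Sox10 and Tubb3, a set chosen after the data were seen, which holds fewer cells. The cause was not tested. With 1 count in place of 5 as the threshold, Ret was in 47.8% of Dorsal cells (30.4% at 5), and Ret cells held Gfra3 in 54.3% (36.8%) and Gfra2 in 30.9% (17.5%). The counts against Mesenchymal were the same in all 11 alternatives run, and that of Dorsal against HSC was 3 or 4. No paired analysis was possible because the labels give no replicate numbers.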
